A study of Mus musculus with 32 samples.

Results

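The interleukins and interleukin receptors were followed across liver cells and tumor cells of a mouse model of colorectal cancer (CRC) liver metastasis. Members were all array probes, control spots aside, whose gene name begins with Il followed directly by a number. This gave 103 of 55681 probes and 81 of 34821 named genes, and 19 of the member genes had more than 1 probe. The rule reads the name only, so it also took in genes that share the name without being cytokines, such as *Il4i1*, an amino acid oxidase, and it missed older names of family members such as *Ebi3*.

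Balb/c male mice had received either C26 cells, a colon carcinoma line of the same strain, or saline alone (controls) by injection into the spleen. Liver sinusoidal endothelial cells, Ito cells (the stellate cells that store vitamin A) and Kupffer cells (the resident macrophages) were taken from control livers, giving the groups EC, IC and KC. The same cell types from livers with metastases, called tumor microenvironment (TME) cells, gave ET, IT and KT. Tumor cells of the liver metastases (TM) and of the CRC primary (TP) completed the 8 groups, with 4 labelled replicates each. The liver cells were separated by density gradients or adherence and were kept in culture for a short time before RNA was taken, and both tumor groups descend from a single cell line. Each replicate was 1 channel (1 dye) of a two-colour array, so that 16 arrays on 2 slides gave 32 channels. Control and TM samples carried the dye Cy3 throughout and TME and TP samples Cy5, so that in the comparisons of TME with control and of TP with TM the dye and the biology cannot be told apart.

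Interleukins are secreted proteins by which immune and tissue cells signal to each other. Those of the IL-1 family, among them IL-1, IL-18 and IL-33, bind a specific receptor that recruits an accessory chain and signals through MyD88 and IRAK proteins to NF-kB, whereas most others bind receptors that act through JAK kinases and STAT factors and share chains such as the common gamma chain or gp130. In the liver, Kupffer and endothelial cells are known sources of IL-1, IL-6, IL-10 and IL-18, and antagonists, decoy receptors and binding proteins limit the response.

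Several channels stood apart or went against their labels. On array 4 of the Ito and of the Kupffer cells, the difference between the channels labelled TME and control ran opposite to that of the other arrays (r with the mean of arrays 1 to 3 over 17105 probes well above background was -0.66 and -0.598), whereas it lay between 0.508 and 0.777 for the endothelial arrays. The channel labelled IC 4 lay closer to the IT channels (median SD of the difference 0.473) than to the other IC channels (0.684), and the channel labelled KC 4 closer to KT (0.262) than to KC (0.519). The channels IT 2 and KC 3 stood apart from both groups of their cell type, and TM 1 and TM 4 lay closer to TP than to the other TM channels. EC 1 and 4, EC 2 and 3, and KT 1 and 2 differed by less than the noise between spots of 1 array, and with each pair counted as 1 sample there were 29 samples (n = 2 for EC and n = 3 for KT). The tests below took the 32 channels as they stand, so that their p-values treat each pair as separate samples, and calls lost when the pairs were averaged are given beside them. The labels were kept, and calls of named members that were lost without the channels that stood apart are given too. Endothelial (11 of 11) and Kupffer markers (10 of 10) were above background on all 4 arrays of every liver group, whichever cell type the label named, and hepatocyte markers in 8 to 10 of 10. Of 11 Ito markers, 10 were in EC, ET and IC, 8 in IT and 9 in KC and KT. In TM and TP at most 1 endothelial, 2 Kupffer and 0 hepatocyte markers were, and 5 Ito markers in each. Summed Ito marker levels (log2) were 18.0 to 18.4 in EC and 17.1 to 18.2 in IC, so the sums did not single out the Ito fraction. Sums here and below add linear values, so the brightest marker weighs most. For the Ito list it was *Dcn*, at 17.9 to 18.3 in EC and 17.0 to 18.1 in IC. Single Ito markers went both ways. *Lrat* read 3.01 to 3.65 in EC and 3.82 to 4.63 in IC, and *Des* 7.18 to 8.32 and 5.24 to 6.31. Markers of other cell types were thus read in each liver fraction. In such bulk RNA, fewer cells of a type and less RNA per cell cannot be told apart.

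A level below is the log2 of the value that the authors deposited after quantile normalization (a linear intensity), and levels of different probes were not ranked against each other. A probe was called above background in a channel where the scanner software had marked it as well above background. Differences are on the same log2 scale from a limma fit over all channels, with the standard error (SE) and a p adjusted over all 55681 probes, and a probe was called at an adjusted p under 0.05. Of the member probes, 21 were above background in 32 of 32 channels and 22 in none. Genes with no probe above background anywhere numbered 13, among them *Il9*, *Il25*, *Il31*, *Il12a* and *Il17f*, which are cytokines of helper T cells, mast cells or activated dendritic cells. Member probes above background on all 4 arrays numbered 41 to 52 in the liver groups, 31 in TM and 32 in TP. That is 30.1% and 31.1% of the members in TM and TP, beside 39.3% and 36% of all probes.

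**Figure D1:**
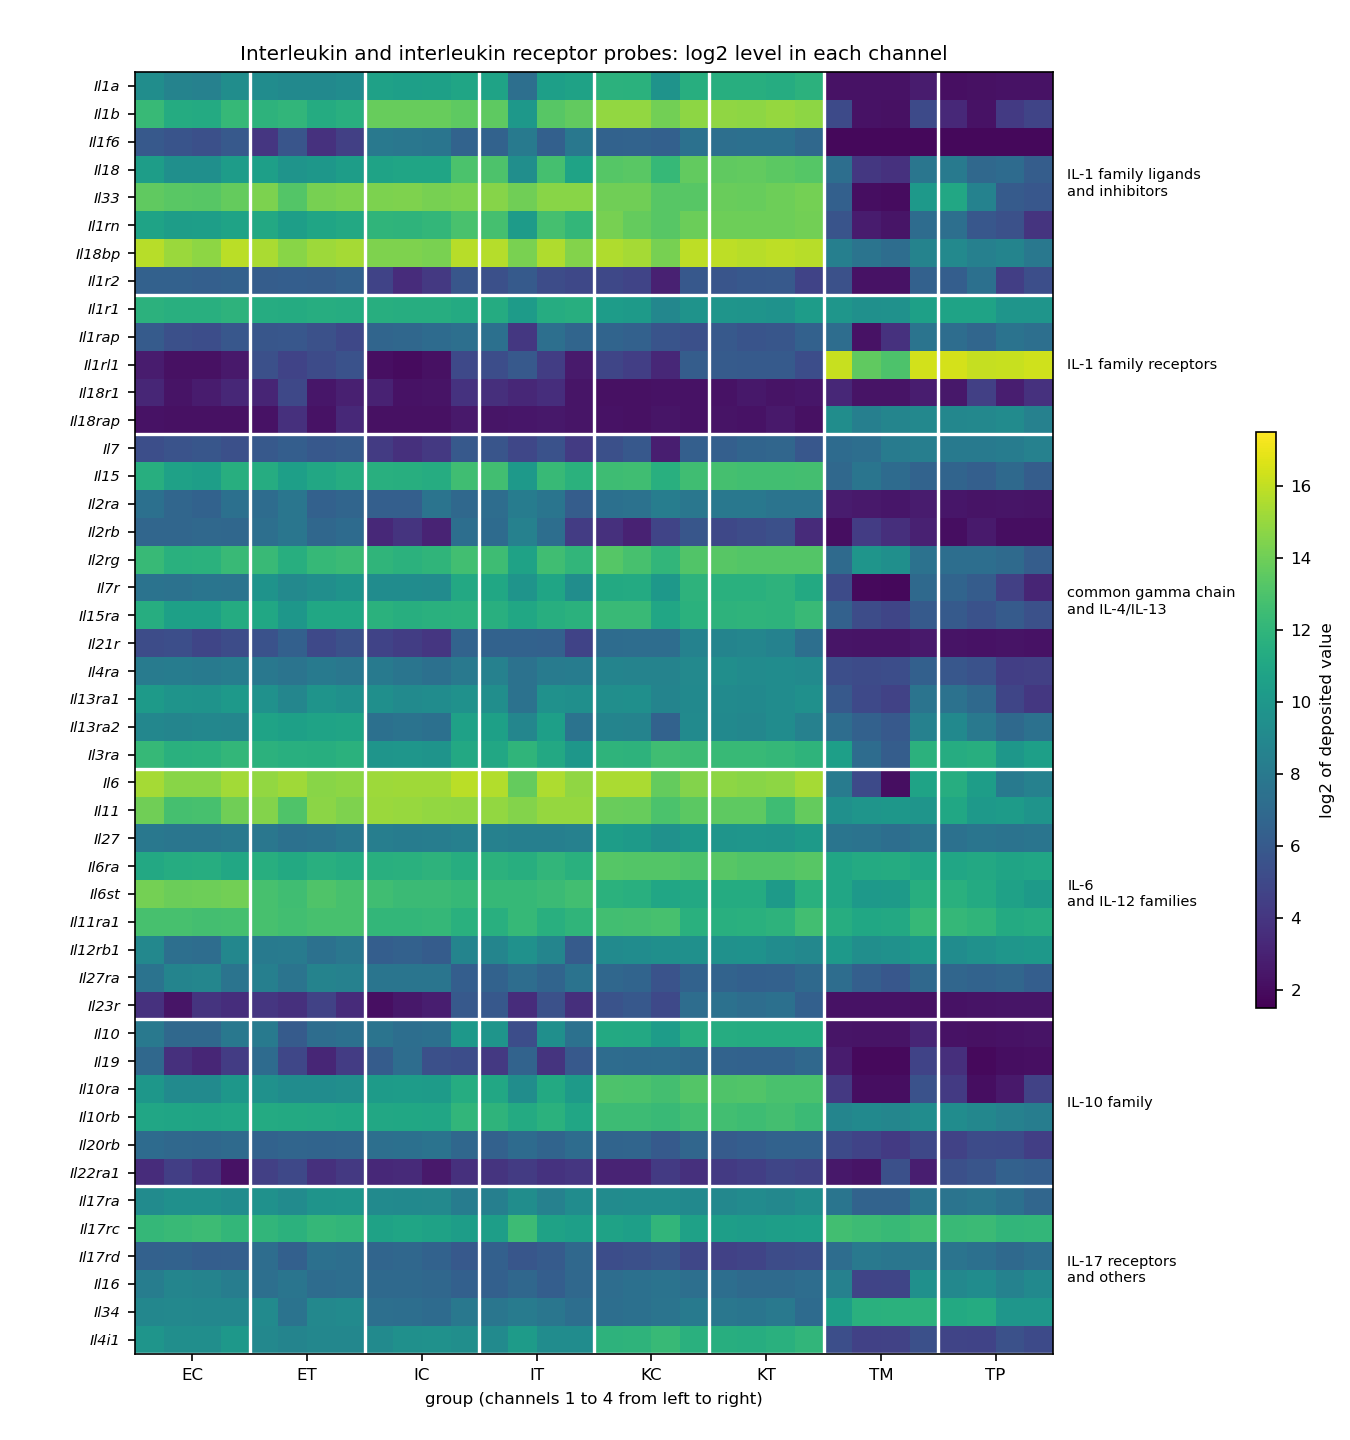
Heat map of the log2 level of 46 member genes (rows, 1 probe each, that with the highest variance) in the 32 channels (columns, channels 1 to 4 of each group from left to right). *Il1a*, *Il1b*, *Il33*, *Il2rg*, *Il15*, *Il10* and *Il10ra* are brighter in the 6 liver groups than in TM and TP, and *Il1rl1* and *Il18rap* run the other way. IT 2 and the array 4 channels of IC and IT differ from their neighbours.

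The clearest division was between the tumor cells and the liver cells. TM was compared with KC and TP with KT, since these pairs shared the slide and the dye. Against KC, 10 member probes were higher and 34 lower in TM (9.71% and 33% of members), where 23.3% of all probes were called higher and 16.2% lower. Against KT, 13 were higher and 33 lower in TP (12.6% and 32%), where 25.7% of all probes were higher and 17.8% lower. With near-identical channels averaged the counts were the same, beside 22.5% and 15.8% of all probes against KC and 23.2% and 16.5% against KT. Without TM 2 and 3, the TM calls of *Il3ra* (adjusted p 0.0922), *Il11ra1* (0.122), *Il31ra* and *Il20rb* were lost.

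Of the 12 member lists, the IL-1 family ligands had the largest share called lower in tumor cells. Of 8 probes, 6 fell in TM against KC and 6 in TP against KT (*Il1a*, *Il1b*, *Il1f6*, *Il1f9*, *Il18* and *Il33* in both), and 0 rose. The median difference of the list was -6.17 and -5.72, where that of all probes was 0.08 and 0.10. *Il1b*, the main inflammatory cytokine of macrophages, had levels of 14.91, 14.92, 14.11 and 14.76 in KC 1 to 4 and 14.85, 14.80, 14.94 and 14.80 in KT. In TM it read 5.07, 2.31, 2.24 and 5.10 and in TP 3.33, 2.30, 4.25 and 4.79. All tumor channels lay far below all liver channels, and the probe was above background in 1 of 4 TM and 0 of 4 TP channels. The difference in TM, measured against channels mostly below background, was -11.00 (SE 0.66, adjusted p 1.68e-13), and without TM 2 and 3 it was -9.59 (SE 0.68, adjusted p 2.36e-11). In TP, where it could only be bounded, *Il1b* was at least 270-fold lower (adjusted p 1.03e-13). For such a bound, the lower level was replaced by the faintest signal that still counted as above background (or the probe's own, if larger). It was taken from channel values after loess and Aquantile normalization and is open to dye bias.

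*Il1a*, the membrane-associated IL-1, was above background in 24 of 24 liver and 0 of 8 tumor channels. It was at least 28.3-fold lower in TM (adjusted p 3.47e-14) and at least 31.4-fold lower in TP (adjusted p 1.02e-14).

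*Il33*, an alarmin released by damaged barrier and stromal cells, had high levels in the liver groups, from 13.24 to 14.69 over 24 channels. Among tumor channels it varied more than any liver group, with 6.42, 2.07, 2.01 and 10.07 in TM 1 to 4 and 11.08, 8.61, 6.11 and 5.84 in TP. The highest tumor channel, TP 1, still lay below every liver channel, and the differences were -8.55 (SE 1.12, adjusted p 3.68e-07) in TM and -6.02 (SE 1.12, adjusted p 5.96e-05) in TP, with 2 of 4 TM and 3 of 4 TP channels above background. Without TM 2 and 3 the former was -5.44 (SE 0.92, adjusted p 2.57e-05). *Il18*, which is cleaved and released after inflammasome activation, fell by 7.41 in TM and by 6.44 in TP on the log2 scale (adjusted p 4.24e-09 and 4.65e-08), and 2 of 4 TM channels were above background.

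*Il1rl1* and *Il18rap* went the other way. *Il1rl1* encodes ST2, the receptor of IL-33, of which a soluble decoy form is also known, and *Il18rap* encodes the accessory chain that IL-18 needs to signal. Beside *Il18r1*, the IL-18 binding chain, they lie in a cluster on chromosome 1. The 250 bases before the starts of the 3 genes are shown since 2 of the neighbours were bright in tumor cells and the one between them was not. They were taken from RefSeq on GRCm38.p6, plus strand, 5′ to 3′, and capitals mark GATA motifs (AGATAA and its variant TGATAA, searched on both strands).
Il1rl1 start 1 (chr1:40429320-40429569): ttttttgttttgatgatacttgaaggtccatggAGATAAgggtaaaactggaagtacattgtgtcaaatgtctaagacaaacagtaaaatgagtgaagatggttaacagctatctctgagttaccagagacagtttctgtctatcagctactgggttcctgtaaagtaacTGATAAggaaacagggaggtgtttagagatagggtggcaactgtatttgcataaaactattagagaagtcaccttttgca
Il1rl1 start 2 (chr1:40439379-40439628): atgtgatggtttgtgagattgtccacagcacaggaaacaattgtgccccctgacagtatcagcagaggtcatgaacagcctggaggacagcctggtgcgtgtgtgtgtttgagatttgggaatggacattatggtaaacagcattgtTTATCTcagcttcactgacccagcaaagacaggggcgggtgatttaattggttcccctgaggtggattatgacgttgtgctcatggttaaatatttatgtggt
Il18r1 start 1 (chr1:40465302-40465551): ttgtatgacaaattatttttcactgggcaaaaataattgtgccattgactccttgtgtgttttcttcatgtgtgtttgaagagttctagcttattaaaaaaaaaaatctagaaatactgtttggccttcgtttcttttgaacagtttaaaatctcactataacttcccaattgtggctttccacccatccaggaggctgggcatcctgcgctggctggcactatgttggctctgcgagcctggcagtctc
Il18rap (chr1:40515112-40515361): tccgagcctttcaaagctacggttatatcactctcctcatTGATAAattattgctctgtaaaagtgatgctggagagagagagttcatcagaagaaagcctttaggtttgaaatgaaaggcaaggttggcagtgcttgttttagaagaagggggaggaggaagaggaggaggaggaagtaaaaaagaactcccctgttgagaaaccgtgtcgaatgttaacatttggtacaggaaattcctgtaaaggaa
The first *Il1rl1* window held 2 such matches, the second held 1, that of *Il18rap* held 1 and the *Il18r1* window shown, the first of 3 listed starts, held none. *Il1rl1* is shown with both listed starts and *Il18r1* with 1 of 3, so the matches give no contrast between the genes. Over 32851 windows of this length 16.6% held a match, and of the 79 windows of the members 24.1% did. A match is a description of letters and not of binding. Windows were found for 64 of the 81 member genes.

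The array held 3 probes of *Il1rl1*, and all of them were higher in tumor cells. The probe at chr1:40504769-40504828 (mm9, plus strand), assigned to transcript variant 2, read 16.14, 13.59, 13.03 and 16.41 in TM 1 to 4 and 16.46, 16.12, 16.17 and 16.36 in TP. In KC it read 4.82, 4.45, 3.28 and 6.23 and in KT 6.11, 6.05, 6.06 and 5.26. The groups did not overlap, TM 2 and 3 were the lowest tumor channels, and the differences were 10.10 (SE 0.73, adjusted p 5.85e-12) and 10.41 (SE 0.73, adjusted p 2.74e-12). A probe of variant 1 at chr1:40522187-40522246, above background in 1 of 4 KC channels, gave 10.01 (SE 0.56, adjusted p 4.65e-14) and 10.28 (SE 0.56, adjusted p 2.33e-14). The other variant 1 probe, at chr1:40520014-40520073, was above background in 8 of 8 tumor and 0 of 24 liver channels. The bounds were at least 8.49-fold in TM and at least 13.4-fold in TP, both upward (adjusted p 5.19e-18 and 6.45e-19).

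*Il18rap* (chr1:40605729-40605788, mm9) showed the same pattern of detection, above background in 8 of 8 tumor and 0 of 24 liver channels. Its levels were 8.41 to 9.36 in TM and 8.56 to 9.20 in TP, and the highest liver channel was ET 2 at 3.73. Upward bounds were at least 6.51-fold in TM (adjusted p 2.78e-18) and at least 6.76-fold in TP (adjusted p 2.93e-18). *Il18r1* was above background in none of the 8 tumor channels with either of its probes, and in 1 of 24 liver channels with one of them.

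**Figure D2:**
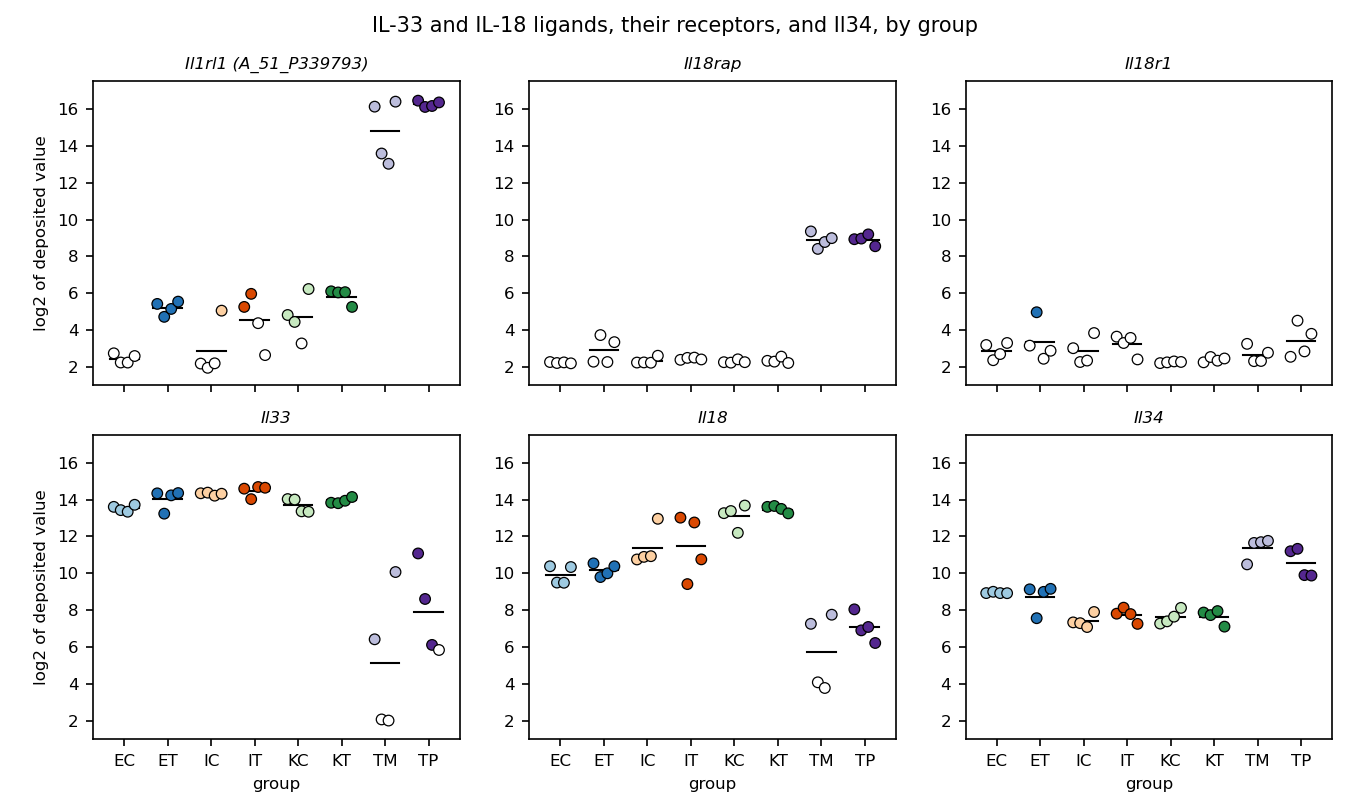
Log2 level (y axis) of *Il1rl1*, *Il18rap*, *Il18r1*, *Il33*, *Il18* and *Il34* in each channel (points, left to right 1 to 4; open points are not well above background; lines are group means with near-identical channels counted once) of the 8 groups (x axis). *Il1rl1*, *Il18rap* and *Il34* are highest in TM and TP, *Il33* and *Il18* are lowest there, and *Il18r1* is open in all tumor channels.

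Other IL-1 family receptors differed less between tumor and Kupffer cells. *Il1r1* was itself called lower in KC than in EC and IC, and tumor cells were not tested against those. *Il1r1*, the signalling IL-1 receptor, was above background in 32 of 32 channels, with 9.90, 9.52, 9.61 and 10.61 in TM and 10.35, 10.21, 8.90 and 9.71 in KC, and its difference of 0.12 (SE 0.29, adjusted p 0.821) did not pass the test. *Il1r2*, the IL-1 decoy receptor, gave -0.53 (SE 0.74, adjusted p 0.645) in TM, and *Il1rap*, the accessory chain of the IL-1 and IL-33 receptors, -0.82 (SE 0.78, adjusted p 0.46). Neither passed, 2 of 4 TM channels were above background for each, and without TM 2 and 3 both turned to 1.31 (SE 0.68, adjusted p 0.146) and 1.37 (SE 0.58, adjusted p 0.0693). A different *Il1rap* probe, above background in 1 of 4 KT and 0 of 4 TP channels, was called lower in TP (adjusted p 0.00946). Of 5 probes of inhibitors, 2 were lower in both tumor comparisons. *Il1rn*, the IL-1 receptor antagonist, differed by -9.31 (SE 0.73, adjusted p 3.17e-11) in TM (2 of 4 TM channels above background) and -8.38 (SE 0.73, adjusted p 2.1e-10) in TP, and *Il18bp*, which neutralizes IL-18, by -7.29 (SE 0.39, adjusted p 1.94e-14) and -7.30 (SE 0.39, adjusted p 1.68e-14). *Il18bp* stayed above background in all tumor channels, with 8.39, 7.64, 7.22 and 8.66 in TM.

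Receptors of the common gamma chain, IL-3 and IL-13 group were called lower in tumor cells more often than not. Of 15 probes 9 fell and 0 rose in each comparison, with a median of -3.28 in TM and -3.39 in TP. *Il3ra* was called lower only in TM and *Il2rb* only in TP. *Il2rg*, the common gamma chain itself, read 7.05, 9.86, 9.48 and 7.51 in TM and 7.29, 7.28, 7.02 and 6.21 in TP, all below the lowest liver channel of 10.75. It fell by 4.35 in TM (adjusted p 1.23e-08) and by 6.31 in TP (adjusted p 9.32e-12) on the log2 scale. *Il7r*, the IL-7 receptor chain, fell by 7.10 and 6.47 (adjusted p 3.26e-08 and 1.46e-07), with 2 of 4 channels above background in either tumor group. *Il2ra*, the high-affinity IL-2 chain, was above background in all 24 liver and none of the 8 tumor channels, at least 3-fold and at least 2.93-fold lower (adjusted p 7.29e-13 and 2.25e-13). *Il4ra*, which binds IL-4 and takes part in the IL-13 receptor, differed by -3.22 (SE 0.27, adjusted p 1.06e-10) in TM, and *Il13ra1*, its IL-13 partner, by -3.35 (SE 0.59, adjusted p 2.93e-05). *Il15*, which sustains NK cells, and *Il15ra*, which presents it, fell together: by 5.24 and 6.19 in TM and by 6.15 and 6.21 in TP. The second *Il15ra* probe gave -5.05 and -5.54. *Il7*, a stromal survival factor for lymphocytes, was the one ligand of this group that rose, with 7.10, 7.29, 8.16 and 8.34 in TM against 5.41, 5.91, 2.84 and 6.35 in KC. The difference was 2.59 (SE 0.52, adjusted p 1.49e-04) in TM and 1.82 (SE 0.52, adjusted p 0.00494) in TP.

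In the IL-6 and IL-12 families, 4 of 7 ligand probes fell in each tumor comparison and 0 rose. The 4 included *Il12b*, which was above background in no channel of KT, TM or TP. *Il6*, an acute-phase cytokine, had levels of 13.74 to 15.87 in the 24 liver channels and 8.17, 5.12, 2.09 and 10.79 in TM and 11.44, 10.38, 8.06 and 8.53 in TP. Tumor and liver channels did not overlap, and the 4 TM channels spread over more than the TP channels. The differences were -8.26 (SE 1.04, adjusted p 1.77e-07) and -5.29 (SE 1.04, adjusted p 1.16e-04), and the former was -5.32 (SE 0.72, adjusted p 1.31e-06) without TM 2 and 3. The 250 bases before its start are shown as a reference for this gene, whose induction by NF-kB and AP-1 is well known, with the AP-1 motif (TGANTCA) and matches of the GATA and NF-kB motifs in capitals (RefSeq, GRCm38.p6, plus strand).
Il6 (chr5:30012864-30013113): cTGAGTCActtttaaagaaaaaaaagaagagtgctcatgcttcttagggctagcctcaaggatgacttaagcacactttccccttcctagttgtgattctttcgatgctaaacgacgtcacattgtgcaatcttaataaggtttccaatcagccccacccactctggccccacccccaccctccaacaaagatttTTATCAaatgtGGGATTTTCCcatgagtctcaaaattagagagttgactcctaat
An AP-1 match was present in 6.75% of all windows and 17.7% of the member windows, and an NF-kB match in 3.9% and 6.33%. STAT motifs (TTCNNNGAA) were absent from the windows shown and present in 7.02% of all windows and 10.1% of member windows.

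Of the IL-6 receptor chains, *Il6ra* was called lower in tumor than in Kupffer cells and *Il6st* was not. The chains were not tested against each other. *Il6ra*, the IL-6 binding chain, was above background in all 32 channels and fell by 2.05 in TM and 2.28 in TP (adjusted p 2.14e-13 and 2.27e-14). *Il6st* encodes gp130, the signalling chain shared by IL-6, IL-11 and IL-27. It had a difference of -0.64 (SE 0.30, adjusted p 0.0997) in TM and -0.20 (SE 0.30, adjusted p 0.669) in TP, and neither passed. *Il6st* was itself called lower in KC than in EC and IC, and tumor cells were not tested against those. *Il11*, a gp130 cytokine of stromal cells, differed by -3.73 (SE 0.34, adjusted p 4.14e-10) and -3.02 (SE 0.34, adjusted p 1.86e-08), and *Il27* by -2.47 and -2.32.

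*Il10*, the main anti-inflammatory cytokine, and *Il10ra*, its binding chain, were bright in the liver groups and near the floor in tumor cells. *Il10* was above background in 24 of 24 liver and 0 of 8 tumor channels and was at least 26-fold lower in TM and at least 29.3-fold lower in TP (adjusted p 2.66e-11 and 6.4e-12). *Il10ra*, above background in 1 of 4 TM and 0 of 4 TP channels, differed by -9.51 (SE 0.58, adjusted p 1.89e-13) in TM, by -8.16 (SE 0.55, adjusted p 1.12e-11) without TM 2 and 3, and was at least 98.6-fold lower in TP. *Il10rb*, the chain shared with IL-22 and the lambda interferons, was above background in every channel and differed by -3.49 (SE 0.21, adjusted p 2.08e-13) and -3.83 (SE 0.21, adjusted p 2.93e-14).

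Beside *Il1rl1* and *Il18rap*, the members higher in tumor cells than in Kupffer cells were few. *Il34*, a ligand of the CSF-1 receptor that sustains macrophages, read 10.49, 11.65, 11.69 and 11.76 in TM and 11.20, 11.33, 9.90 and 9.88 in TP. In KC it read 7.27, 7.39, 7.65 and 8.12 and in KT 7.87, 7.73, 7.95 and 7.11, with no overlap. The difference was 3.79 (SE 0.36, adjusted p 1.02e-09) in TM and 2.91 (SE 0.36, adjusted p 1.02e-07) in TP. *Il17rd*, which modulates growth factor and IL-17 signals, rose by 2.37 and 2.36 (adjusted p 1.07e-08 and 1.07e-08). *Il17rc*, the partner chain of the IL-17 receptor, rose with both probes against KC, by 1.76 and 1.53 in TM, while *Il17ra*, the common IL-17 chain, fell by 2.06 (adjusted p 4.44e-07). The *Il17rc* probe with 1.76 read 9.55, 9.21, 9.03 and 9.55 in TM, near its levels of 8.84, 9.18, 9.29 and 8.78 in EC. *Il17rc*, *Il17rd* and *Il34* were called lower in KC than in EC, and tumor cells were not tested against EC. *Il16*, a chemoattractant of CD4+ cells, was higher in TP than in KT by 1.84 (SE 0.62, adjusted p 0.0169) and gave -0.48 (SE 0.62, adjusted p 0.616) in TM against KC, which did not pass and turned to 1.64 (SE 0.25, adjusted p 7.12e-06) without TM 2 and 3. Whether the differences in TM and TP differ was not tested. *Il4i1* fell by 6.93 and 6.65 (adjusted p 1.09e-18 and 2.81e-18), with 3 of 4 TM and 1 of 4 TP channels above background. *Il12b*, counted among the members lower in both tumor comparisons, was above background in 2 of 4 KC channels and in no channel of KT, TM or TP.

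**Figure D3:**
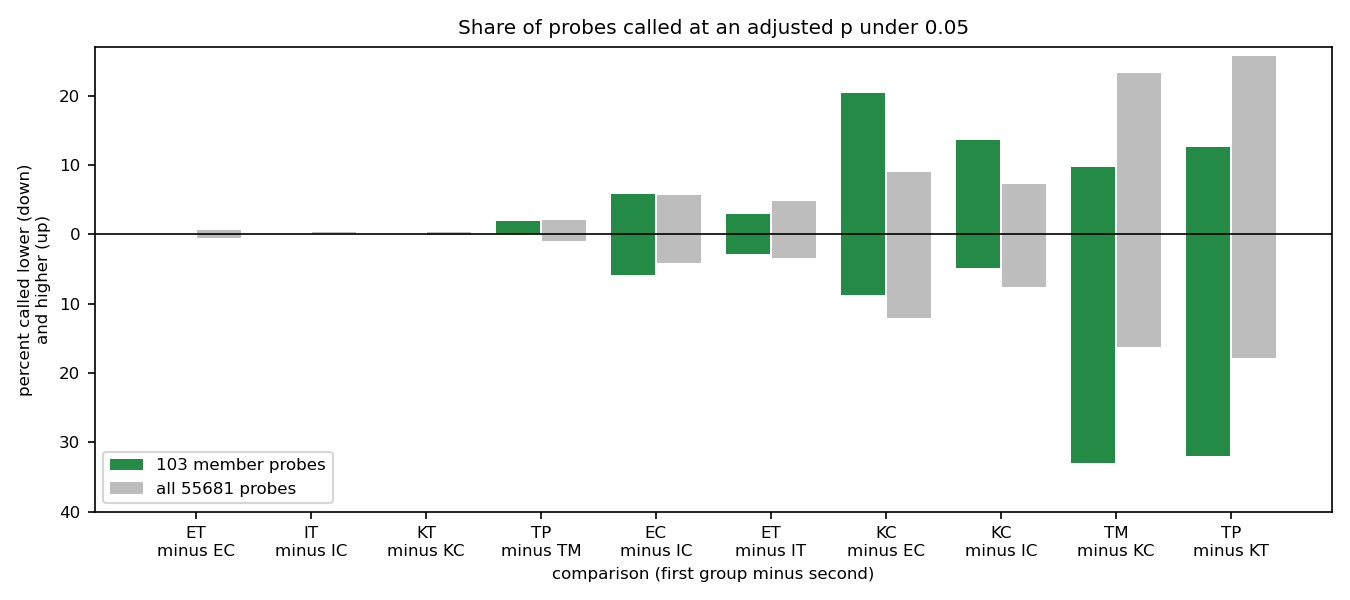
Percent of probes called higher (bars up) and lower (bars down) in 10 comparisons (x axis, first group minus second) for the 103 member probes (green) and all 55681 probes (grey). Members are called lower more often than all probes in TM against KC (33% beside 16.2%) and in TP against KT, and 0 members are called between TME and control cells.

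Among the control liver cells, Kupffer cells carried the highest levels of many members. These comparisons are between fractions from mice that received no tumor cells, and each fraction held markers of the other cell types. KC lay on the other slide than EC and IC, so that cell type and slide cannot be told apart there. Against EC, 21 member probes were higher and 9 lower in KC (20.4% and 8.74%), where 8.95% of all probes were higher and 12.1% lower. Against IC, 14 were higher and 5 lower (13.6% and 4.85%), where the shares of all probes were 7.24% and 7.57%. With near-identical channels averaged the counts were 17 and 8 against EC and 13 and 5 against IC, beside 5.44% and 6.92%, and 6.41% and 6.72%, of all probes. The calls lost by averaging were, against EC, *Il12b* (adjusted p 0.0754), *Il15* (0.102), *Il19* (0.0736), *Il1rl1* (0.142), *Il2rb* (0.118) and *Il34* (0.0634) and, against IC, *Il12b* (0.0605).

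*Il10* read 11.22, 11.16, 10.34 and 11.50 in KC 1 to 4, 7.97, 6.92, 6.92 and 7.91 in EC and 7.66, 7.30, 7.42 and 10.02 in IC. KC lay above both other groups, and the channel labelled IC 4 came nearest. It was higher by 3.62 (SE 0.66, adjusted p 1.94e-04) than in EC and by 2.96 (SE 0.66, adjusted p 0.00256) than in IC. Its receptor chains followed, *Il10ra* with 3.43 (SE 0.58, adjusted p 7.35e-05) and 2.41 (SE 0.58, adjusted p 0.00446), and *Il10rb* with 1.56 and 1.21 (adjusted p 4.78e-06 and 2.41e-04). *Il27*, an IL-12 family cytokine of activated phagocytes, had 10.38, 10.24, 9.56 and 10.01 in KC and 7.90, 7.77, 7.79 and 7.97 in EC. The groups were far apart relative to their spread, with 2.19 (SE 0.14, adjusted p 3.6e-11) and 1.71 (SE 0.14, adjusted p 9.09e-09). *Ebi3*, which pairs with it and falls outside the name rule, was 3.44 (adjusted p 1.03e-04) higher than in EC.

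Of 8 IL-1 family ligand probes, 5 were higher in KC than in EC (*Il1a*, *Il1b*, *Il18*, *Il1f8* and *Il1f9*) with a list median of 1.61, and 0 were lower. Of these, *Il1f8* was above background in none of the 32 channels and *Il1f9* in 0 of 4 EC and 3 of 4 KC channels. *Il1b* read 12.27, 11.32, 11.31 and 12.24 in EC and 13.75, 13.78, 13.79 and 13.53 in IC, and was 2.89 (SE 0.66, adjusted p 0.00194) higher in KC than in EC. The corresponding difference from IC of 0.97 (SE 0.66, adjusted p 0.399) did not pass. *Il18* was higher by 3.20 (SE 0.75, adjusted p 0.00252) and *Il1rn* by 3.17 (SE 0.73, adjusted p 0.00209) than in EC. Against IC they differed by 1.75 and 1.58 and did not pass (adjusted p 0.133 and 0.169). *Il33* read 14.35, 14.38, 14.22 and 14.32 in IC, above all EC and KC channels, but its differences did not pass, with -0.79 (SE 1.12, adjusted p 0.827) between EC and IC, -0.63 (SE 1.12, adjusted p 0.826) between KC and IC and 0.16 (SE 1.12, adjusted p 0.968) between KC and EC. *Il7r* was 3.48 (SE 0.81, adjusted p 0.00225) higher in KC than in EC and 1.36 (SE 0.81, adjusted p 0.314) than in IC, the latter not called. *Il6ra* was 1.92 (SE 0.12, adjusted p 5.35e-11) and 1.57 (SE 0.12, adjusted p 6.32e-09) higher, and *Il21r*, the IL-21 chain, 2.38 (SE 0.45, adjusted p 2.91e-04) and 2.62 (SE 0.45, adjusted p 1.89e-04). *Il4i1* rose by 2.25 and 2.51, and *Il12rb1*, shared by the IL-12 and IL-23 receptors, by 2.44 (SE 0.55, adjusted p 0.00284) against IC. *Il4ra* was 0.99 (SE 0.27, adjusted p 0.0117) higher than in IC and *Il15* 1.28 (SE 0.39, adjusted p 0.0194) higher than in EC, and without array 4 of the Ito and Kupffer cells neither passed (adjusted p 0.0519 and 0.0546). *Il1rl1*, above background in 0 of 4 EC and 3 of 4 KC channels, was at least 1.32-fold higher in KC (adjusted p 0.0274), and after normexp correction with loess and Aquantile normalization it did not pass (adjusted p 0.567).

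**Figure D4:**
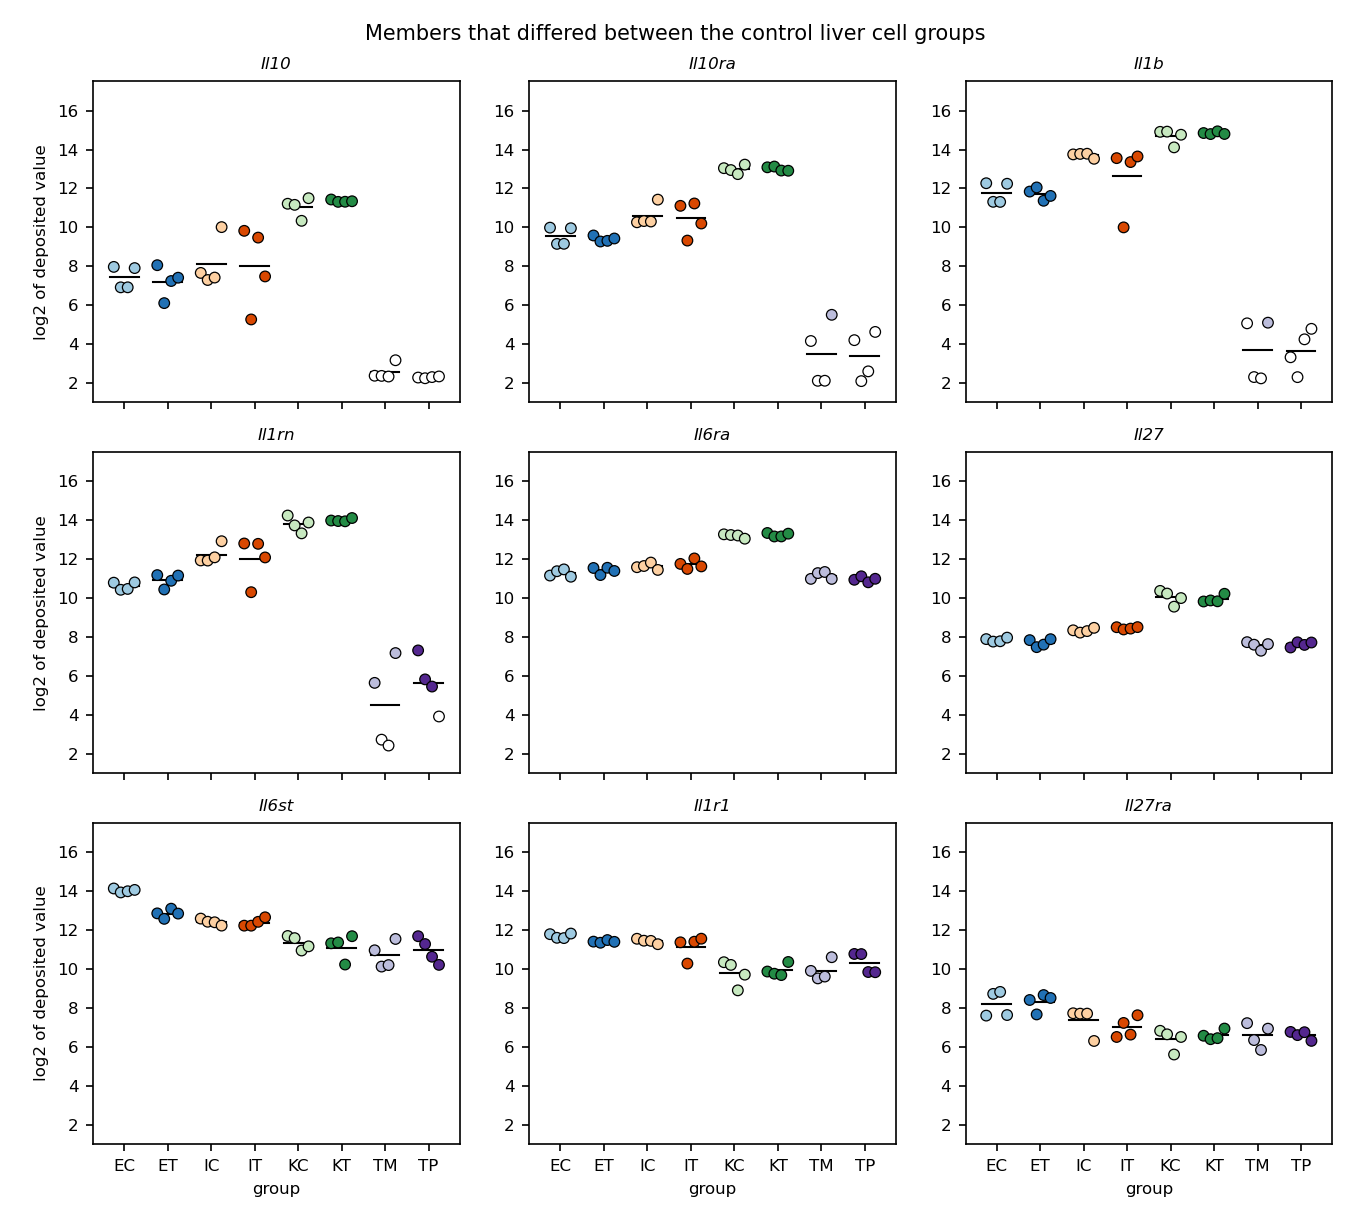
Log2 level (y axis) of 9 members in each channel (points, open where not well above background; lines are group means with near-identical channels counted once) of the 8 groups (x axis). *Il10*, *Il10ra*, *Il6ra* and *Il27* are highest in KC and KT, whereas *Il6st*, *Il1r1* and *Il27ra* are highest in EC, ET or the Ito groups.

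Receptors formed most of the members that were lower in Kupffer cells. *Il6st* read 14.14, 13.93, 14.00 and 14.06 in EC, 12.59, 12.43, 12.40 and 12.23 in IC and 11.70, 11.59, 10.95 and 11.16 in KC, 3 groups that did not overlap. It was -2.68 (SE 0.30, adjusted p 3.58e-07) in KC against EC and -1.06 (SE 0.30, adjusted p 0.0165) against IC. *Il1r1* differed by -1.91 (SE 0.29, adjusted p 2.42e-05) and -1.64 (SE 0.29, adjusted p 2.85e-04), and *Il27ra*, the IL-27 receptor, by -1.80 (SE 0.36, adjusted p 5.35e-04) against EC. The opposite order of ligand and receptor for IL-27 between KC and EC, and of *Il6ra* and *Il6st*, is visible in the plot of liver cell types. Against IC, *Il27ra* was not called. *Il2rb*, above background in 1 of 4 KC channels (KC 4), gave -2.50 (SE 0.77, adjusted p 0.02) against EC. *Il17rd* fell by 1.09 and 1.20, and *Il20rb*, a chain of the IL-20 receptors, by 0.72 against IC (adjusted p 0.0135). Without IT 2 and KC 3, *Il6st* and *Il20rb* no longer passed against IC (adjusted p 0.0559 and 0.0581).

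Endothelial and Ito cells shared slide and dye. Of the member probes, 6 were higher and 6 lower in EC than in IC (5.83% each, beside 5.72% and 4.17% of all probes), and with near-identical channels averaged 4 were higher and 3 lower (beside 2.15% and 1.78%). *Il6st* was higher by 1.62 (SE 0.30, adjusted p 6.4e-04), *Il17rc* by 1.57 (SE 0.31, adjusted p 0.0011) and *Il34* by 1.54 (SE 0.36, adjusted p 0.00494), the last with adjusted p 0.0664 after averaging. *Il1a*, *Il23a*, *Il27* and *Il2rb* lost their calls by averaging too (adjusted p 0.163, 0.224, 0.157 and 0.238). *Il4*, the cytokine of type 2 immunity, read 5.41, 5.25, 5.01 and 5.49 in EC and was above background there in 4 of 4 channels, in 2 of 4 ET channels and in no other channel of the series. It was at least 1.37-fold above IC (adjusted p 0.00276) and at least 1.37-fold above KC (adjusted p 2.96e-04). *Il2rb*, the IL-2 and IL-15 signalling chain of NK and T cells, was 2.42 (SE 0.77, adjusted p 0.0451) higher, with IC at 3.35, 3.90, 3.09 and 7.27 and the channel labelled IC 4 far above the other 3. Without array 4 of the Ito and Kupffer cells it was 3.38 (SE 0.43, adjusted p 1.37e-05). Summed T and NK cell marker levels were 11.8 to 12.0 in EC, 10.02 to 10.18 in IC 1 to 3 and 13.5 in IC 4. In KC these sums were 9.84 to 11.7, highest in KC 3, where *Il2rb* was below background. Their part in the result was not tested. The members lower in EC had differences of -1.53 (SE 0.34, adjusted p 0.00297) for *Il11*, -1.70 (SE 0.49, adjusted p 0.0244) for *Il1a* and -1.78 (SE 0.37, adjusted p 0.00193) for *Il1f6*, an IL-36 cytokine. *Il27* gave -0.49 (SE 0.14, adjusted p 0.0235), and without array 4 of the Ito and Kupffer cells *Il1a* and *Il27* did not pass (adjusted p 0.055 and 0.0606). *Il15ra* gave -1.65 (SE 0.28, adjusted p 2.6e-04), and its other probe was not called. *Il23a*, a subunit of IL-23, was at least 1.72-fold lower (adjusted p 0.0475). Hepatocyte marker sums, 15.1 to 15.4 in EC and 17.2 to 18.8 in IC, and Kupffer marker sums, 15.4 to 16.0 in EC and 16.5 to 18.8 in IC, differed between these groups too. Ito marker sums, set mostly by *Dcn*, were 18.0 to 18.4 in EC and 17.1 to 18.2 in IC, not higher in the group named for them. The part of these markers was not tested.

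Among TME cells the same pair of cell types gave 3 member probes higher and 3 lower in ET than in IT (2.91% each, beside 4.78% and 3.48% of all probes). *Il27ra* was higher by 1.31 (SE 0.36, adjusted p 0.0215), *Il11ra1*, the IL-11 binding chain, by 0.95 (SE 0.26, adjusted p 0.0228), and *Il3*, a growth factor of blood cells, at least 1.02-fold (adjusted p 0.0448). Of the ET and IT channels, ET 2 alone was above background for *Il3*. *Il27*, *Il15ra* and *Il1f6* were lower, with differences of -0.75 (SE 0.14, adjusted p 6.55e-04), -1.61 (SE 0.28, adjusted p 4.23e-04) and -2.74 (SE 0.37, adjusted p 1.55e-05). The other *Il15ra* probe was not called here either. Without array 1, and likewise without array 3, 0 members were called higher.

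Between TME and control cells no member probe passed the test in any of the 3 cell types. Called shares over all probes were small too, at 0.578% higher and 0.564% lower in endothelial, 0.269% and 0.0198% in Ito and 0.372% and 0.0647% in Kupffer cells. At an unadjusted p under 0.05, 7 member probes were higher and 5 lower in ET, 10 and 2 in IT and 3 and 3 in KT, which is 12, 12 and 6 of 103 beside 7.71%, 9.88% and 7.37% of all probes. The methods' t-test, adjusted in the same way, called 3 and 2, 2 and 1, and 0. In the test of whether the change differed between cell types 0 members passed as well. There, 5 members had an unadjusted p under 0.05 for Ito against endothelial, 5 for Kupffer against endothelial and 6 for Kupffer against Ito cells, and the methods' t-test called 1, 0 and 1. Of all probes 0.0844% and 0.0269%, 0.0629% and 0.018%, and 0.0018% and 0.0018% were called higher and lower in these tests.

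In endothelial cells, where the 4 arrays ran alike, *Il1rl1* read 2.74, 2.24, 2.24 and 2.59 in EC 1 to 4 and 5.42, 4.72, 5.15 and 5.55 in ET. All ET channels were above background and all EC channels were not. The fit gave at least 1.42-fold (adjusted p 0.0645), and with near-identical EC channels averaged adjusted p 0.497. The other *Il1rl1* probes gave 1.57 (adjusted p 0.292) and, below background in both groups, no fold. *Il13ra2*, the IL-13 decoy receptor, had 8.88, 8.78, 8.92 and 8.87 in EC and 10.81, 10.61, 10.77 and 10.86 in ET. The groups were 1.90 apart, but EC 1 and 4, and EC 2 and 3, were near-identical, so the small spread inside EC is not that of separate samples. The fit, whose variance for this probe comes from all 8 groups, gave adjusted p 0.314. With near-identical channels averaged, no member was called in ET against EC, and dye and TME cannot be told apart here. *Il7r* behaved alike, with 7.59, 7.52, 7.69 and 7.63 and 9.71, 9.01, 9.41 and 9.73, a difference of 1.85 (SE 0.81, adjusted p 0.515). *Il6st* ran lower, 12.86, 12.58, 13.10 and 12.85 in ET against the EC values above, with -1.19 (SE 0.30, adjusted p 0.0509) and, after averaging, adjusted p 0.437. *Il16* read 8.30, 8.77, 8.66 and 8.25 in EC and 7.34, 7.73, 7.18 and 7.26 in ET, a difference of -1.12 (SE 0.62, adjusted p 0.795). The JAK kinase *Jak1*, outside the name rule, was -0.95 (adjusted p 3.02e-04) in ET and the one gene of 28 signalling genes called there. T and NK cell sums were 13.3 to 14.8 in ET beside 11.8 to 12.0 in EC, neutrophil sums 11.96 to 13.05 beside 10.03 to 10.5 and Kupffer sums 16.1 to 16.7 beside 15.4 to 16.0, and their part in these values was not tested.

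In Ito and Kupffer cells the members followed the split of array 4. *Il2rb* differed between IT and IC by 3.74, 4.65 and 4.19 on arrays 1 to 3 and by -2.90 on array 4. *Il13ra2* gave 3.16, 1.28 and 3.17, then -3.06, and *Il12rb1* 2.49, 3.12 and 2.61, then -2.64. Of IC 1 to 3, 1 channel was above background for *Il2rb*. With all arrays the fitted differences were 2.42 (SE 0.77, adjusted p 0.28), 1.14 (SE 0.70, adjusted p 0.599) and 1.39 (SE 0.55, adjusted p 0.402). With array 4 of both cell types left out, a choice made after its direction was seen and so no independent evidence, 9 member probes were higher and 1 lower in IT (8.74% and 0.971%, beside 3.69% and 3.97% of all probes). *Il2rb* was then higher by 4.19 (SE 0.46, adjusted p 5.73e-06), *Il12rb1* by 2.74 (SE 0.37, adjusted p 6.3e-05), *Il13ra2* by 2.54 (SE 0.60, adjusted p 0.0107), *Il21r* by 2.14 (SE 0.22, adjusted p 2.6e-06) and *Il10rb* by 0.61 (SE 0.18, adjusted p 0.0449). *Il1rl1* (adjusted p 0.00288) and *Il23r* (9.37e-04) were called higher but were below background in IC 1 to 3, and *Il23a* (0.00782) was called lower but was below background in IT 1 to 3, so no difference is given for them. Among these are receptor chains known from NK and T cells, and the T and NK cell marker sum was at most 10.2 in IC 1 to 3 and 13.4 to 14.9 in IT 1 to 3. Neutrophil sums were 10.4 to 10.6 in IC 1 to 3 and 13.1 to 14.3 in IT 1 to 3, and Kupffer sums 16.5 to 16.8 in IC 1 to 3, 18.5 in IT 1 and 3 and 14.9 in IT 2. Their part was not tested. *Il10* and *Il18* did not follow one direction on arrays 1 to 3 (2.16, -2.03 and 2.05 for *Il10*), the odd one being IT 2, whose summed epithelial marker level of 17.2 was the highest of the liver channels.

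**Figure D5:**
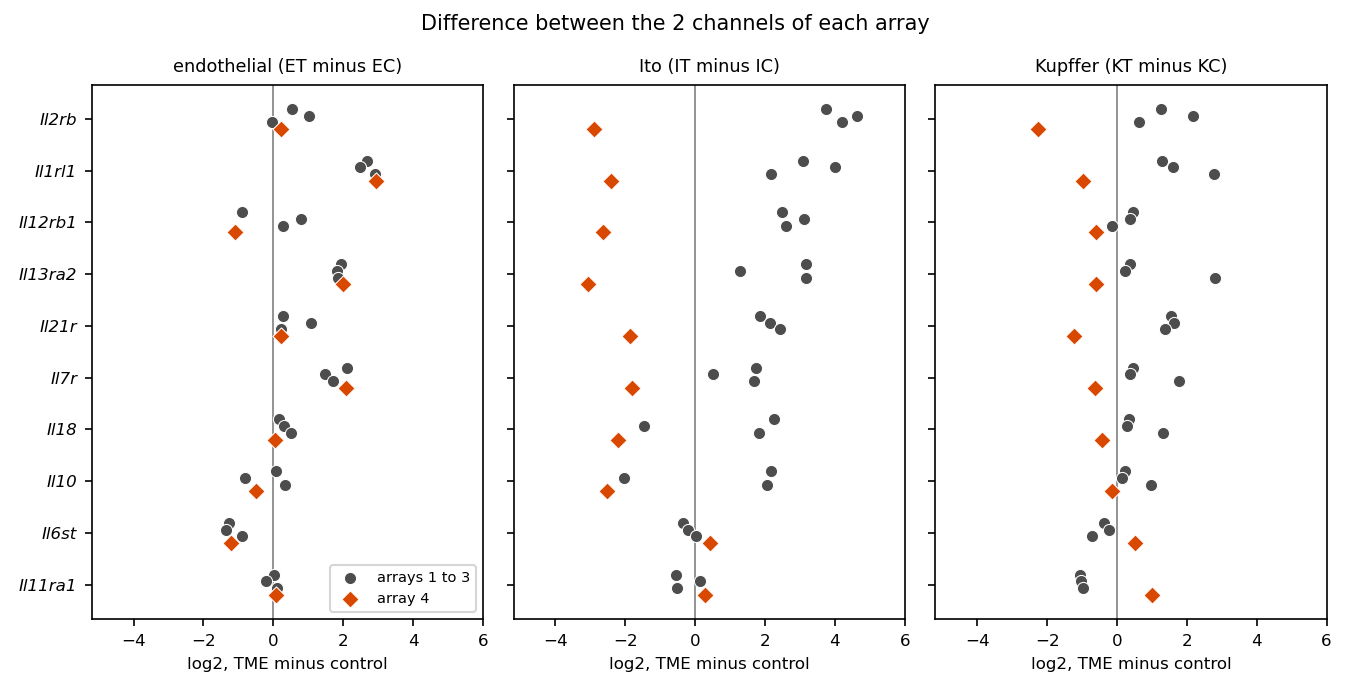
Difference in log2 level between the TME and the control channel of each array (x axis) for 10 members (y axis) in endothelial, Ito and Kupffer cells; circles are arrays 1 to 3 and diamonds array 4. In the Ito panel the diamonds of *Il2rb*, *Il1rl1*, *Il12rb1*, *Il13ra2* and *Il21r* lie left of 0 and their circles right of it. In that panel the *Il1rl1* points of arrays 1 to 3 are set against IC channels below background.

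In Kupffer cells, without array 4, 4 member probes were higher and 1 lower in KT (3.88% and 0.971%, beside 1.75% and 2.1% of all probes). *Il21r* was higher by 1.51 (SE 0.22, adjusted p 4.07e-04), *Il23r*, the IL-23 chain, by 1.86 (SE 0.43, adjusted p 0.017), *Il7* by 1.86 (SE 0.49, adjusted p 0.034) and *Il15ra* by 1.13 (SE 0.32, adjusted p 0.0496), and *Il11ra1* was lower, with -1.03 (SE 0.24, adjusted p 0.0177). The other *Il15ra* probe gave -0.50, -0.42 and 0.91 on arrays 1 to 3 and was not called. *Il21r* read 7.15, 7.21, 7.24 and 8.57 in KC 1 to 4 and 8.69, 8.83, 8.61 and 7.34 in KT. The channels labelled KC 4 and KT 4 were the exceptions, each near the values of the other group. The *Il7* difference was largest on array 3 (3.92, beside 0.92 and 0.72), whose KC channel stood apart and was below background for *Il7*. Neutrophil sums were 11.6 to 12.0 in KC 1 to 3 and 13.5 to 13.6 in KT 1 to 3, and T and NK cell sums 9.84, 9.86 and 11.7 in KC and 11.3 to 11.4 in KT. Their part was not tested. The main IL-1, IL-6 and IL-10 ligands of Kupffer cells did not pass between KT and KC with all arrays, with 0.17 (SE 0.66, adjusted p 1) for *Il1b*, 0.09 (SE 1.04, adjusted p 1) for *Il6* and 0.30 (SE 0.66, adjusted p 1) for *Il10*.

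Between primary and metastatic tumor cells, 2 member probes were higher and 0 lower in TP (1.94% beside 2.05% of all probes, and 0.961% for lower). *Il22ra1*, the IL-22 receptor chain of epithelial cells, read 2.50, 2.36, 5.38 and 2.83 in TM and 5.40, 5.72, 6.47 and 6.25 in TP, above background in 1 of 4 and 4 of 4 channels. TP lay higher than TM, TM 3 just below the lowest TP channel, and the difference was 2.69 (SE 0.49, adjusted p 0.00153). Without array 2 it was 2.47 (adjusted p 0.0519), and after normexp background correction it was 0.68 or 0.50 depending on the normalization. The call was lost in a fit of these 2 groups alone, and a second *Il22ra1* probe was below background in all 8 tumor channels. The other called probe, one of 2 for *Il20rb*, was below background in both groups. *Il6*, *Il33* and *Il16* split the TM channels instead: *Il16* had 8.51, 4.78, 4.82 and 9.55 in TM and 8.99, 9.29, 8.60 and 9.10 in TP, TM 2 and 3 being low and TM 1 and 4 near TP. Their differences were 3.06 (SE 1.04, adjusted p 0.111), 2.77 (SE 1.12, adjusted p 0.197) and 2.08 (SE 0.62, adjusted p 0.0646). *Il2rg* gave -1.53 (SE 0.47, adjusted p 0.0738), TM 2 and 3 being the highest tumor channels. At an unadjusted p under 0.05, 12 member probes were higher and 5 lower, beside 16.4% of all probes.

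Genes that act with the members but lack the name were read from 2 lists, with 1 probe a gene, that with the highest variance. The shares of all probes given beside these counts come from probes not picked by variance, so the measures are not alike. Of 28 signalling genes downstream of interleukin receptors, 2 were higher and 23 lower in TM than in KC (median -2.62 beside 0.08 for all probes), and 2 were higher and 21 lower in TP than in KT. Of all probes, 23.3% were higher and 16.2% lower in TM, and 25.7% and 17.8% in TP. Highest were *Sigirr*, an inhibitory relative of the IL-1 receptor, at 5.66 (adjusted p 8.68e-17) in TM, and the kinase *Irak1* at 2.08 (adjusted p 1.21e-10). Lower were *Irak3*, a brake on IL-1 and Toll-like receptor signals, at -7.62 (adjusted p 2.06e-14) with 1 of 4 TM channels above background, and the adaptor *Myd88* at -2.80 (adjusted p 2.32e-14). Of 14 partner ligands and receptors, 0 were higher and 12 lower in TM and 0 and 11 in TP, among them *Csf1r*, the receptor of IL-34, at -4.18 (adjusted p 2.39e-07) in TM, where 2 of 4 channels were above background. In KC against EC, 8 signalling genes were higher and 3 lower, and 6 partner genes were higher and 3 lower, beside 8.95% and 12.1% of all probes. *Csf1r* was 2.64 (adjusted p 5.83e-04) there and *Csf2rb*, the chain shared by the IL-3 and GM-CSF receptors, 2.91 (adjusted p 0.00491), while *Tslp*, an alarmin that acts through *Il7r*, was -2.13 (adjusted p 5.04e-08). Against IC, 12 signalling genes were higher and 2 lower in KC, beside 7.24% and 7.57% of all probes. Between TP and TM, the signalling genes lower in TP included *Stat6* at -1.68 (adjusted p 1.37e-04) and *Irak2* at -1.02 (adjusted p 0.0295), above background in 2 of 4 and 1 of 4 TP channels.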

How the data were processed

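Total RNA of 32 mouse samples in 8 labelled groups was hybridised, per the labels, to 16 two-colour Agilent arrays. The table deposited by the authors held intensity values on a linear scale, quantile normalized over the samples, and levels are their log2 computed here. The deposited scanner intensity values, with marks for spots well above background, gave the detection calls and the alternatives. Arrays hold no read depth, so the number of arrays limits the precision. Between 38.4% and 57.1% of spots were well above background.

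All 55681 probes were fitted with limma 3.58.1 (R 4.3.3) over the 8 groups. P-values were adjusted over all probes by the Benjamini-Hochberg procedure, with a call at an adjusted p under 0.05 and 1 probe a gene (that with the highest variance) as its representative. Alternatives covered background correction, normalization, a filter on dim probes, the array as a block, the methods' t-test and left-out channels. Sequences within the 250 bases before each start were read from RefSeq. The fit was tested on simulated data. Named members were, per comparison, up to 5 called higher and 5 lower by size, if detected on 4 of 4 arrays of the brighter group, plus 25 key genes whatever their values. Members and lists were chosen with earlier results of these data known. The methods call the replicates biological, but the labels do not tie them to separate animals, so p-values measure the spread between these samples, which may be technical. Probe coordinates are those of the array design (mm9). Same-numbered TME and control channels of a cell type, and those of TP and TM, shared an array, but the main fit did not take them as pairs.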

Additional observations from a re-analysis of the deposited data

Results flagged for a closer look

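In 31 of 178 groups of 4 samples tested, 1 channel lay far from the other 3 relative to the range, where chance gives about 1 in 20. Of these, 12 were the channel labelled IC 4, whose levels were 11.13 for *Il7r*, 13.53 for *Il1b*, 11.43 for *Il10ra*, 5.06 for *Il1rl1*, 10.02 for *Il10*, 2.78 for *Il23a*, 12.93 for *Il1rn*, 15.87 for *Il6*, 5.63 and 8.74 for the probes of *Il12rb1*, 10.67 for *Il13ra2* and 12.96 for *Il18*. The channel IT 2 had 10.002 for *Il1b*, 10.28 for *Il1r1*, 7.34 for *Il1a*, 9.45 and 12.48 for the probes of *Il17rc*, 14.03 for *Il33*, 14.88 for *Il15ra* and 10.29 for *Il4i1*. The channel labelled IT 4 had 2.17 for a variant 1 probe of *Il1rl1* and 4.71 for *Il21r*, and KC 4 had 8.57 for *Il21r*. ET 2 had 7.56 for *Il34*, 13.24 for *Il33* and 9.95 for *Il15ra*, and ET 3 had 2.35 for *Il4*. KC 3 had 9.72 for *Il1a* and 12.05 for *Il17rc*. In the tumor cells, TM 1 had 10.49 for *Il34* and TM 3 had 5.38 for *Il22ra1*. What sets these channels apart was not tested.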

How the results depend on the processing

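Of 90 named differences, 48 kept direction and call in every setting, and no called difference changed sign. Counts of member probes called, given here as totals, moved as follows. For ET against EC (0) they were 2 with the scanner signal, 2 with normexp and quantile, 4 with normexp and loess, 1 with 75th percentile scaling, 2 after the dim filter, 8 with only the groups compared and 5 by the methods' t-test. For IT against IC (0) the methods' t-test gave 3, and for KT against KC (0) normexp with loess gave 1. For TP against TM (2), normexp with quantile, percentile scaling and the dim filter gave 1 each, and only the groups compared and the methods' t-test 0. For EC against IC (12) they were 19 and 20 with normexp, 21 with only the groups compared and 21 by the methods' t-test. For ET against IT (6) they were 11 and 13 with normexp, 10 with percentile scaling (3 higher and 7 lower), and 3 with only the groups compared and by the methods' t-test. At an adjusted p under 0.001 and 4-fold, counts were 0 for TP against TM and EC against IC, 1 for ET against IT, 10 for KC against EC (30) and 2 for KC against IC (19). For the change in Ito against that in endothelial cells (0), normexp with loess, only the groups compared and the methods' t-test gave 1 each, and for Kupffer against Ito cells the methods' t-test gave 1.

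With 1 replicate left out, counts ranged from 0 to 1 for ET against EC, 0 to 11 for IT against IC (11 without array 4), 0 to 3 for KT against KC (3 without array 4), 0 to 7 for TP against TM (0 without array 2, 7 without array 4), 8 to 15 for EC against IC, 3 to 11 for ET against IT (3 without array 1, 11 without array 2), 24 to 33 for KC against EC, 11 to 24 for KC against IC (11 without array 1), 41 to 44 for TM against KC, 44 to 46 for TP against KT and 0 to 3 for the change in Ito against endothelial cells.

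Other alternatives were chosen after seeing the data. Averaging near-identical channels gave 1 for TP against TM and 7 for EC against IC. Leaving out array 4 of Ito and Kupffer cells gave 2 for ET against EC, 10 for IT against IC, 5 for KT against KC, 1 for TP against TM, 10 for ET against IT and 5 for the change in Ito against endothelial cells. Leaving out IT 2 and KC 3 gave 3, 1, 4 and 13 for ET against EC, IT against IC, TP against TM and ET against IT, and leaving out TM 2 and 3 gave 3 for ET against EC. The cause of these moves was not tested.

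The replicate block (array) gave 1 call for ET against EC (*Il6st*), 3 for TP against TM and 11 for EC against IC, and the main counts elsewhere. Deviations of same-numbered channels correlated between -0.645 and 0.403, so the numbers were not taken as pairs. Under percentile scaling the median of all probes shifted by up to 0.616 (TP against KT), where calls were 25 higher and 32 lower, and by 0.498 for TM against KC, with 18 and 33. Dim probes, near the floor of the signal, limit folds to bounds.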
